A study of Mus musculus with 8 samples.

Results

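Dopamine receptors and the striatal machinery that turns their signal into cyclic AMP were followed through mouse brain RNA in 10 genes. They were Drd1a (the older symbol of Drd1), Drd2, Drd4, Drd5, Adora2a, Gnal, Adcy5, Pde10a, Rgs9 and Ppp1r1b, taken from the 17613 genes of the deposited table by symbol. All 10 passed the filter on low counts, as did 15902 genes in all. Polyadenylated RNA of brain was sequenced in 4 libraries labelled Uhrf2 KO and 4 labelled wild type, all on the C57BL/6 background. Uhrf2 encodes a reader of modified cytosines, and the study's title links it to 5-methylcytosine and to seizures. Neither the allele of the knockout nor the animals' age, sex or number is given in the sources used here, so that p-values measure the spread between these libraries only.

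The counts of the targeted gene went against the knockout label. Uhrf2 averaged 88.8 ± 2.23 CPM (counts brought to a common library size with TMM factors) in the libraries labelled KO and 55.4 ± 5.22 CPM in those labelled WT (SD, n = 4 each), a log2 fold change of 0.68 (SE 0.06; adjusted p = 5.45e-06, edgeR). A count per gene does not separate reads inside a deleted part from reads outside it. Every direction below therefore rests on the labels. Library totals ran from 13550420 to 19065173 counts in the libraries labelled KO and from 11891350 to 19773921 in those labelled WT. Pan-brain markers were present at 2614 ± 123 CPM (labelled KO) and 2451 ± 107 CPM (labelled WT) for the neuronal gene Snap25, and at 3314 ± 240 CPM (labelled KO) and 3465 ± 126 CPM (labelled WT) for the myelin gene Mbp (SD, n = 4 each).

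As background, dopamine acts on medium spiny neurons, the projection neurons of the striatum, through receptors of opposite sign. D1-class receptors (Drd1a and Drd5) stimulate adenylyl cyclase, and D2-class receptors (Drd2 and Drd4) inhibit it. Neurons of the direct pathway carry Drd1a, whereas those of the indirect pathway carry Drd2 together with the adenosine receptor Adora2a, which stimulates the cyclase. In the striatum the stimulating G protein subunit is the product of Gnal and the main cyclase that of Adcy5. Cyclic AMP activates protein kinase A, which phosphorylates the product of Ppp1r1b and makes it an inhibitor of protein phosphatase 1. Pde10a encodes an enzyme that degrades cyclic nucleotides, and Rgs9 a protein that speeds the switching off of inhibitory G proteins.

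Promoter windows were read for the genes whose RNA rose in the libraries labelled KO, beside that of Drd2, a receptor whose RNA did not pass the test. They run from 250 bases before to 50 bases after a transcription start of RefSeq on GRCm38.p6, and 7 of the 10 genes had one. Of those that rose, Drd1a, Drd4 and Adcy5 had a window. The windows lie at chr13:54055609-54055908 on the minus strand for Drd1a (the upstream of its starts), and on the plus strand at chr7:141291768-141292067 for Drd4, chr16:35154614-35154913 for Adcy5 and chr9:49340153-49340452 for Drd2. Each is written 5′ to 3′, with CpG dinucleotides, the sites of DNA methylation, in capitals.
Drd1a: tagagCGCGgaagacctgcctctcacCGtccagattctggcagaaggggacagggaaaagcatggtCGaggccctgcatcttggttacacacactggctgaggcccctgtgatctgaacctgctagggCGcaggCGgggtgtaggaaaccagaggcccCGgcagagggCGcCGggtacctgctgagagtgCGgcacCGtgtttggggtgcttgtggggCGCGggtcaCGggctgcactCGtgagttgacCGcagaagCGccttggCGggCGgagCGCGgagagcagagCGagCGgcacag
Drd4: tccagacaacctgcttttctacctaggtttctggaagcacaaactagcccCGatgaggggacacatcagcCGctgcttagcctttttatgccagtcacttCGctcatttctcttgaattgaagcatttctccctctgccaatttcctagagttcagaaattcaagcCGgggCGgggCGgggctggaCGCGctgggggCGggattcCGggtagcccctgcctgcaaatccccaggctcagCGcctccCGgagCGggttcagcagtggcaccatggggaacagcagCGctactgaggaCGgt
Adcy5: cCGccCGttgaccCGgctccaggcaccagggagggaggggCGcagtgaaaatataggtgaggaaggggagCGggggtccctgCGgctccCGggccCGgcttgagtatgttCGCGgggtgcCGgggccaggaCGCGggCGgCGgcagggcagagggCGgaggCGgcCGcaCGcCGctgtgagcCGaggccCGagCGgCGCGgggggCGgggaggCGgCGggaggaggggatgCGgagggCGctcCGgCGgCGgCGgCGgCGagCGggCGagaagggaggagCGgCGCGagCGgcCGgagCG
Drd2: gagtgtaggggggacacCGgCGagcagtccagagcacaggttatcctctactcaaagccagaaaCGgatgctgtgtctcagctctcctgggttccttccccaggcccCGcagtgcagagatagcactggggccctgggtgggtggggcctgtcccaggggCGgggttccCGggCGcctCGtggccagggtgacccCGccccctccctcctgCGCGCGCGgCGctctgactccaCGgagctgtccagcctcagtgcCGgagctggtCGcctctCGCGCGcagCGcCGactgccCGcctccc

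The windows differed in CpG content. Drd1a and Drd2 held 23 CpG each, Drd4 held 15 and Adcy5 held 44, against a median of 7 over 32851 windows of the same length. In all, 97.8% of windows had fewer CpG than Adcy5, 78.5% had fewer than Drd1a or Drd2, and 65.4% had fewer than Drd4. The cAMP response element TGACGTCA, its core TGACG and the EGR motif GCGGGGGCG, searched on both strands, had no match in the windows of the 7 genes. They are in 1.79%, 20.8% and 2.91% of all windows, and every full element also holds the core. The GC box GGGCGG, in 35.7% of all windows, matched at 3 places in Drd4, 4 in Adcy5, 2 in Drd2 and 1 in Drd1a. A match or its absence describes these letters only.

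RNA of 4 of the 10 genes rose in the libraries labelled KO, that of none fell and that of 6 did not pass the test. The background of all tested genes was 228 of 15902 past the same threshold, an adjusted p of 0.05 (1.43%; 1.14% were higher and 0.289% lower under the KO label). The genes that rose were Drd1a, Drd4, Adcy5 and Ppp1r1b. A positive log2 fold change was found in 10 of the 10, against 48% of all tested genes, with a median of 0.18, against -0.0049 over all tested genes. Every library labelled KO lay above every library labelled WT in 5 of the 10, namely those that rose and Drd5, against 4.28% of all tested genes, and none of the 10 showed the opposite, against 3.4% (7.67% in either direction). Their summed level was 1109 to 1160 CPM in libraries labelled KO and 994 to 1064 CPM in those labelled WT. The genes were chosen with earlier results of these data known, so these counts describe them and are no test of the group. In bulk tissue a change in the number of cells of a type and a change in RNA per cell cannot be told apart.

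**Figure D1:**
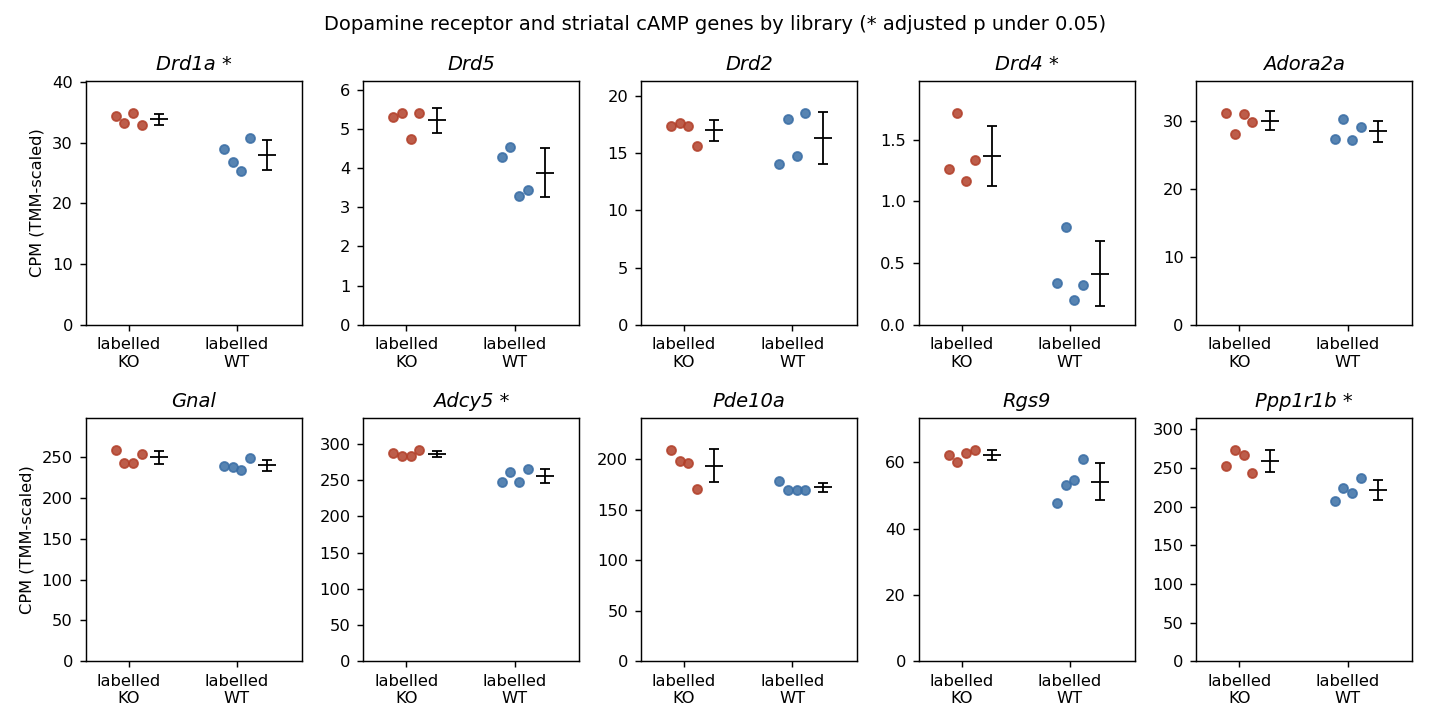
CPM of each of the 10 genes in the 4 libraries labelled KO (left in each panel) and the 4 labelled WT (right), 1 point per library, with the mean and SD as a bar beside the points. The groups are apart in Drd1a, Drd5, Drd4, Adcy5 and Ppp1r1b and overlap in the other panels.

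Among the D1-class receptors, Drd1a (chr13:54051183-54055705 on GRCm38) rose. Its level was 34.4, 33.3, 34.9 and 33.0 CPM in KO-labelled replicates 1 to 4, against 28.9, 26.8, 25.3 and 30.8 CPM in WT-labelled replicates 1 to 4. The KO-labelled libraries lay within 2 CPM of each other and all above the highest of the others, and the lowest value was that of WT-labelled replicate 3. The log2 fold change of Drd1a was 0.28 (SE 0.06, 1.22-fold; adjusted p = 0.0326, from the quasi-likelihood test of edgeR after Benjamini-Hochberg adjustment). Drd5, the other D1-class receptor (chr5:38319367-38322518), had 5.29, 5.41, 4.76 and 5.41 CPM in libraries labelled KO, against 4.29, 4.53, 3.30 and 3.43 CPM in those labelled WT. Although its groups did not overlap, its log2 fold change of 0.43 (SE 0.14) did not pass (adjusted p = 0.154). An antisense gene, Gm26560, shares 48.6% of the exonic bases of Drd5, and reads of the pair cannot be told apart where strand was not used in counting.

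Of the D2-class receptors, Drd4 rose and Drd2 did not pass. Drd2 (chr9:49340627-49408177), the autoreceptor of dopamine neurons and the receptor of the indirect pathway, had 17.4, 17.6, 17.3 and 15.6 CPM in libraries labelled KO and 14.0, 17.95, 14.7 and 18.5 CPM in those labelled WT. The range of the KO-labelled libraries lay inside that of the others, with a log2 fold change of 0.06 (SE 0.09, adjusted p = 0.861, edgeR). Drd4 (chr7:141292006-141296464), a receptor of the same class, rested on few reads. It had 17, 27, 22 and 20 counts in the libraries labelled KO, against 4, 13, 4 and 5 counts in those labelled WT. That was 1.27, 1.72, 1.16 and 1.34 CPM in libraries labelled KO, against 0.336, 0.797, 0.200 and 0.324 CPM in those labelled WT. All KO-labelled libraries stood above the highest WT-labelled library, replicate 2, which had over 2 times the CPM of the other 3. The log2 fold change of Drd4 was 1.72 (SE 0.34, 3.30-fold, adjusted p = 0.0110 by edgeR), the largest of the 10 genes and the least precise.

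The adenosine receptor Adora2a (chr10:75316877-75334784), which shares the indirect-pathway neurons with Drd2, did not pass. It stood at 31.2, 28.2, 31.1 and 29.9 CPM in libraries labelled KO and 27.3, 30.3, 27.2 and 29.2 CPM in those labelled WT, with a log2 fold change of 0.08 (SE 0.06, adjusted p = 0.658, edgeR). The ranges overlapped. Gnal (chr18:67088216-67226792), the G protein subunit that couples Drd1a and Adora2a to the cyclase, had 259, 243, 243 and 254 CPM in libraries labelled KO and 238, 237, 233.5 and 248 CPM in those labelled WT, again with overlap. Its log2 fold change was 0.06 (SE 0.04, adjusted p = 0.571). An antisense neighbour, Mppe1, shares 7.63% of its exonic bases. Among these upstream genes, Drd1a and Drd4 were the ones that passed.

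Adcy5 (chr16:35154877-35305738), the cyclase on which the receptors of either sign converge, rose by a small margin with little spread. It had 287, 283, 284 and 292 CPM in libraries labelled KO, against 248, 261, 248 and 266 CPM in those labelled WT. The groups did not overlap, and the libraries labelled KO spanned 282.7 to 292.2 CPM. The log2 fold change of Adcy5 was 0.17 (SE 0.04, 1.12-fold, adjusted p = 0.0345 by edgeR). Ppp1r1b (chr11:98348404-98357796), the phosphatase inhibitor downstream of cyclic AMP, had 253, 274, 267 and 243 CPM in libraries labelled KO, against 207, 225, 217 and 237 CPM in those labelled WT. The lowest KO-labelled library, replicate 4, was 243.5 CPM and the highest WT-labelled library, also replicate 4, was 237.3 CPM, so the groups were separate by a narrow gap. The log2 fold change of Ppp1r1b was 0.23 (SE 0.05, 1.17-fold, adjusted p = 0.0183 by edgeR). An antisense gene, 1700003D09Rik, shares 15.7% of its exonic bases.

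Of the genes that end the signal, neither passed. Pde10a (chr17:8525372-8986648) had 209, 198, 196 and 170.2 CPM in libraries labelled KO and 178, 169.6, 169.9 and 169.7 CPM in those labelled WT. KO-labelled replicate 4 lay at the level of the WT-labelled libraries while the other 3 lay above it, at a log2 fold change of 0.17 (SE 0.05; edgeR, adjusted p = 0.143). Rgs9 (chr11:109225355-109298129) had 62.1, 60.2, 62.9 and 63.8 CPM in libraries labelled KO and 47.8, 53.1, 54.6 and 61.1 CPM in those labelled WT. WT-labelled replicate 4 reached into the range of the other group, at a log2 fold change of 0.20 (SE 0.06; edgeR, adjusted p = 0.143). At log2 fold changes of 0.17 and 0.20, Pde10a and Rgs9 were close in size to Adcy5, which passed.

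**Figure D2:**
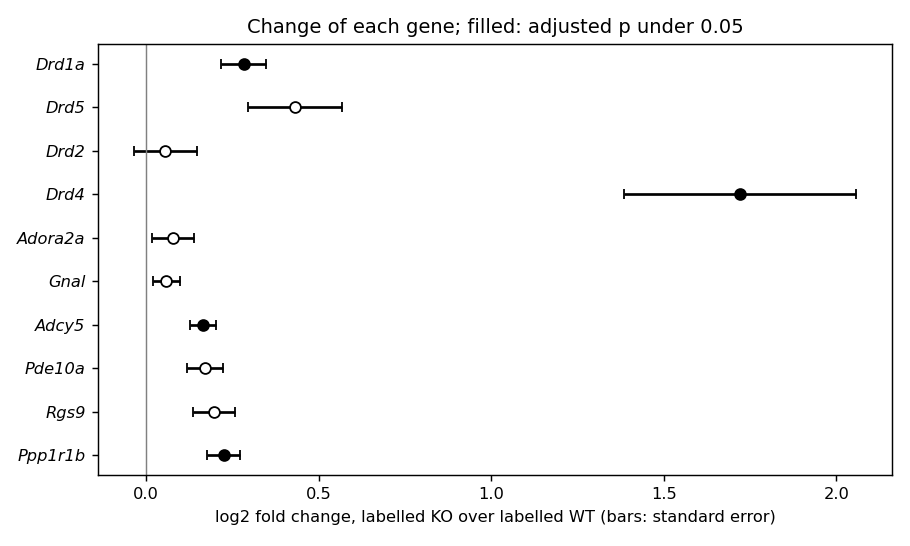
Log2 fold change of each gene, libraries labelled KO over those labelled WT, with its standard error (horizontal axis, log2 scale), ordered by role, and filled where the adjusted p is under 0.05. All 10 lie above 0, from 0.06 for Drd2 and Gnal to 1.72 for Drd4.

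Which of these calls stood depended on single libraries. Without WT-labelled replicate 3 none of the 10 passed, at adjusted p of 0.0682 for Drd4, 0.0757 for Ppp1r1b, 0.141 for Adcy5 and 0.153 for Drd1a (edgeR). Calls over all genes were also at their fewest in that fit, at 110 of 15963 genes tested, against 228 of 15902 with all 8 libraries. That was the single library whose absence ended the call of Drd4. Ppp1r1b also missed the threshold without KO-labelled replicate 3 (adjusted p = 0.0908) or WT-labelled replicate 1 (0.0522). Drd1a missed it without KO-labelled replicates 1, 3 or 4 (0.0663, 0.124 and 0.0679) or WT-labelled replicate 2 (0.098). Adcy5 passed in 2 of the 8 fits, those without KO-labelled replicate 2 (0.0306) and WT-labelled replicate 4 (0.038), and missed it without KO-labelled replicates 1, 3 or 4 (0.0682, 0.0973 and 0.112) or WT-labelled replicates 1 or 2 (0.0793 and 0.0599). Conversely, Pde10a passed without KO-labelled replicate 4 (0.0161) and Rgs9 without WT-labelled replicate 4 (0.032). In each of the 8 fits all 10 genes kept a positive log2 fold change.

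**Figure D3:**
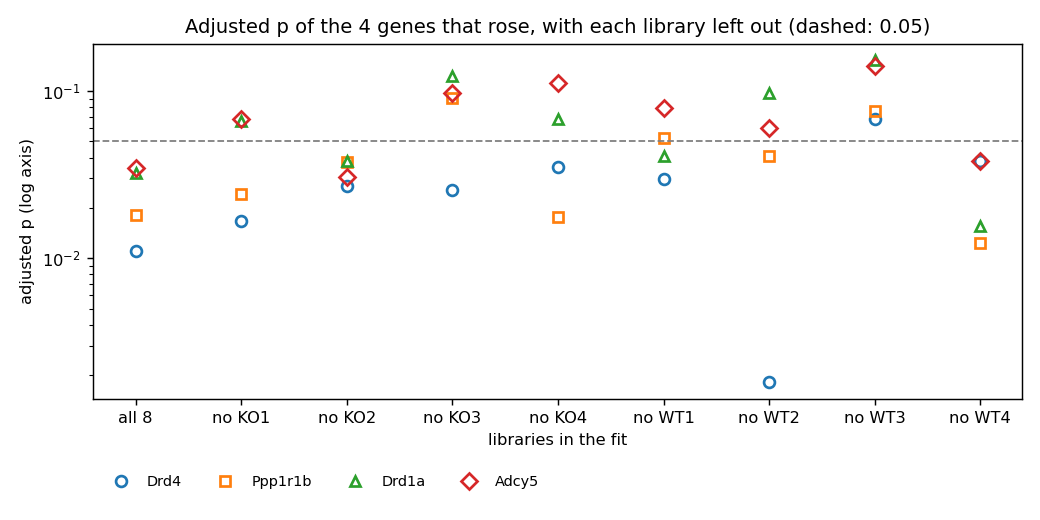
Adjusted p (log axis, edgeR's quasi-likelihood test) of Drd4, Ppp1r1b, Drd1a and Adcy5 with all 8 libraries and with each library left out in turn; the dashed line marks 0.05. All 4 lie above the line without WT-labelled replicate 3, and Drd4 lies below it in every other fit.

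Compared per length, the order of the 10 genes was the same in both groups. On the scale of CPM per kilobase of the longest coding transcript, Ppp1r1b was the most abundant, at 130 ± 6.84 in libraries labelled KO and 111 ± 6.36 in those labelled WT (SD, n = 4 each). Gnal (43.5 ± 1.41 labelled KO, 41.7 ± 1.08 labelled WT) and Adcy5 (40.9 ± 0.61 labelled KO, 36.4 ± 1.32 labelled WT) followed, and their ranges over the 8 libraries overlapped. Pde10a (24.9 ± 2.14 labelled KO, 22.1 ± 0.56 labelled WT) and Rgs9 (17.97 ± 0.45 labelled KO, 15.6 ± 1.59 labelled WT) came next, without overlap between neighbours. The receptors were lower. Adora2a stood at 11.6 ± 0.55 (labelled KO) and 10.99 ± 0.58 CPM per kilobase (labelled WT). It lay above Drd1a, at 9.48 ± 0.25 (labelled KO) and 7.82 ± 0.67 (labelled WT), whose range overlapped that of Drd2, at 6.67 ± 0.36 (labelled KO) and 6.40 ± 0.88 (labelled WT). The rarest were Drd5, at 1.66 ± 0.10 (labelled KO) and 1.23 ± 0.20 (labelled WT), and Drd4, at 0.49 ± 0.09 (labelled KO) and 0.15 ± 0.09 (labelled WT). Drd3, the remaining D2-class receptor, was not analysed here.

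Among the libraries, WT-labelled replicates 3 and 1 were low for most of the 10 genes. WT-labelled replicate 3 held the lowest value of 5 genes, WT-labelled replicate 1 that of 4 and WT-labelled replicate 2 that of 1, as log2 CPM. Averaged over the 8 genes above 10 CPM, the deviation from each gene's mean was 0.11, 0.07, 0.10 and 0.03 on the log2 scale in KO-labelled replicates 1 to 4, against -0.14, -0.06, -0.13 and 0.01 in WT-labelled replicates 1 to 4. WT-labelled replicate 4 was thus nearer to the libraries labelled KO than to the other WT-labelled ones.

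Other markers of medium spiny neurons were read beside these genes. Of the 13 markers of these neurons, 5 are among the 10 genes, and all 13 were positive on the log2 scale, at a median of 0.15. Adcy5 and Ppp1r1b rose and the other 11 did not pass. Of the 8 markers outside the 10 genes, which include the transcription factors Bcl11b and Foxp1, 0 passed by edgeR, 3 had an unadjusted p under 0.05, and 1, Ptpn5, passed by DESeq2. Their summed level was 1031, 1039, 1075 and 1066 CPM in libraries labelled KO, against 952, 978, 921 and 1022 CPM in those labelled WT, so that every KO-labelled library lay above every WT-labelled one. Ptpn5, a striatal tyrosine phosphatase, came closest, at 219.8 ± 9.14 CPM in libraries labelled KO and 196.4 ± 9.67 CPM in those labelled WT (SD, n = 4 each, adjusted p = 0.0885, edgeR). It was picked out after its values were seen. General brain markers also leaned this way, with 4 of 5 positive on the log2 scale, at a median of 0.11. By edgeR and by DESeq2 0 of them passed, and 3 had an unadjusted p under 0.05, all of these higher in libraries labelled KO. They were the neuronal gene Snap25, at a log2 fold change of 0.09 (SE 0.04), the excitatory neuron gene Slc17a7, at 0.11 (SE 0.04), and the GABAergic neuron gene Gad1, at 0.12 (SE 0.05), with ranges that overlapped between the groups. For comparison, 311 of 15902 tested genes passed by DESeq2. The share of all genes at an unadjusted p under 0.05 is not given here, so list counts at that level have no background. The part of these markers in the changes of the 10 genes was not tested.

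Set against that sum, 2 of the 10 genes stood apart, and 7 were higher in the mean of the libraries labelled KO. Drd1a was 3.09% to 3.34% of the summed level of the 8 markers in libraries labelled KO and 2.74% to 3.04% in those labelled WT, and Drd4 was 0.108% to 0.165% (labelled KO) against 0.0217% to 0.0815% (labelled WT). For these 2 genes every KO-labelled library stayed above every WT-labelled one. The ranges of the other 8 genes overlapped, among them Drd5, at 0.443% to 0.521% (labelled KO) and 0.336% to 0.464% (labelled WT), Ppp1r1b at 22.8% to 26.4% (labelled KO) and 21.7% to 23.6% (labelled WT) and Adcy5 at 26.4% to 27.9% (labelled KO) and 26.0% to 26.9% (labelled WT). These shares were computed after the data were seen and carry no test. The same count over all tested genes is not given on this scale, so 2 of 10 has no background here. Of the 2, Drd4 rested on few reads.

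Direct-pathway and indirect-pathway genes were compared within each library, where no scaling between libraries enters. The direct pathway's Drd1a stood to Adora2a as 1.10, 1.18, 1.12 and 1.10 to 1 in libraries labelled KO, against 1.06, 0.885, 0.930 and 1.06 to 1 in those labelled WT, without overlap. The difference in log2 ratio was 0.20, with an exact two-sided permutation p of 0.0286, the smallest that 4 against 4 libraries can give, and 0.0571 when adjusted over the 4 ratios compared. Pdyn, the dynorphin precursor of the direct pathway, stood to Penk, the enkephalin precursor of the indirect pathway, as 0.171, 0.168, 0.155 and 0.171 to 1 (labelled KO) against 0.137, 0.150, 0.139 and 0.153 to 1 (labelled WT). That difference was 0.20 as well, at the same exact permutation p of 0.0286 and adjusted p of 0.0571. The ratio of Drd1a to Drd2 overlapped between the groups, at 1.89 to 2.11 in libraries labelled KO and 1.49 to 2.06 in those labelled WT (difference 0.21, exact permutation p = 0.114, adjusted 0.152). Tac1, the substance P precursor of the direct pathway, to Penk differed by -0.05 (exact permutation p = 0.6). After adjustment none of the 4 ratios passed. With 4 libraries a group, the adjusted value of a ratio could pass only if at least 3 of the 4 ratios reached the smallest exact p, so that the adjusted values leave Drd1a against Adora2a and Pdyn against Penk undecided.

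**Figure D4:**
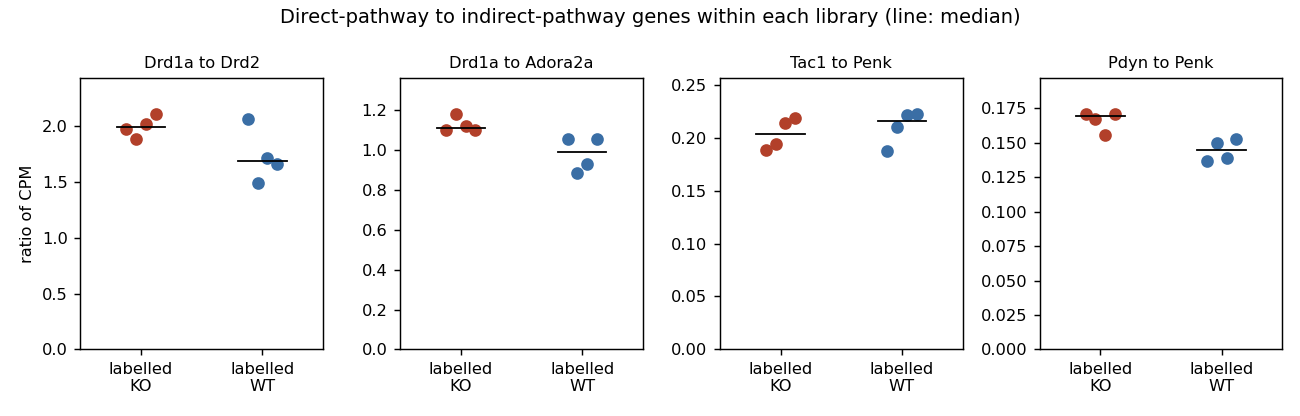
Ratio of CPM of a direct-pathway gene to an indirect-pathway gene within each library (vertical axis, from 0), libraries labelled KO left and labelled WT right, with the median as a line. The groups are apart for Drd1a to Adora2a and Pdyn to Penk and overlap for Drd1a to Drd2 and Tac1 to Penk.

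The direct-pathway list held 1 more gene that rose. Pdyn had 39.3, 35.9, 33.0 and 34.9 CPM in libraries labelled KO, against 25.99, 27.6, 24.5 and 31.4 CPM in those labelled WT. Its groups did not overlap, and its log2 fold change was 0.38 (SE 0.08; edgeR, adjusted p = 0.0118). The call of Pdyn ended without WT-labelled replicate 3 (adjusted p = 0.0652). Of the 7 listed genes, Drd1a and Pdyn rose, 0 fell and 5 did not pass, with a median log2 fold change of 0.13 and 3 at an unadjusted p under 0.05. The third of these, Eya1, lay the other way, at 8.08 ± 1.02 CPM in libraries labelled KO and 9.65 ± 0.801 CPM in those labelled WT (SD, n = 4 each), a log2 fold change of -0.26 (SE 0.11; edgeR, adjusted p = 0.316). Isl1, a transcription factor, was at 0.02 (SE 0.14). Both were picked out after their values were seen. Of the 6 indirect-pathway genes analysed, none passed by edgeR and 1, Penk, by DESeq2, with 1 at an unadjusted p under 0.05 and a median of 0.07. Penk stood at 215 ± 10.8 CPM (labelled KO) and 189 ± 12.5 CPM (labelled WT; SD, n = 4 each, adjusted p = 0.0768).

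Genes of the dopamine neurons that supply the striatum did not pass. By edgeR and by DESeq2 0 of the 6 markers analysed passed, 3 were positive on the log2 scale, the median being -0.01, and 0 had an unadjusted p under 0.05. The groups' summed levels overlapped, at 125.4 to 130.3 CPM in libraries labelled KO and 115.3 to 141.7 CPM in those labelled WT. Those with the lowest p were En1, a midbrain transcription factor, at a log2 fold change of -0.43 (SE 0.21), and Nr4a2, which specifies dopamine neurons, at -0.16 (SE 0.08), with adjusted p of 0.43 and 0.472 (edgeR).

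Near the share of all tested genes (1.43%), 1 gene of 57 passed farther along the pathway. It was Rgs2, a regulator that speeds G protein inactivation and is induced by neuronal activity, at 91.8, 74.4, 79.9 and 70.2 CPM in libraries labelled KO and 57.0, 60.97, 58.3 and 62.7 CPM in those labelled WT. The groups did not overlap, at a log2 fold change of 0.40 (SE 0.07; edgeR, adjusted p = 0.00536). Rgs2 passed in all 8 fits without 1 library, with adjusted p of at most 0.0318. It was the 1 call among 7 regulators of G protein signalling, a list with a median log2 fold change of 0.09.

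The remaining pathway lists held no call in the main edgeR fit (all 8 libraries, group as the only term). The 7 other adenylyl cyclases had a median log2 fold change of -0.03, with Adcy9 at 0.16 (SE 0.06) and Adcy1 at -0.05 (SE 0.03). The 12 G protein genes had a median of 0.03. Gnb5, the obligate partner of the product of Rgs9, stood at 79.1 ± 3.66 CPM in libraries labelled KO and 68.9 ± 3.93 CPM in those labelled WT (SD, n = 4 each, adjusted p = 0.0666), without overlap, and Gnas, the general stimulating subunit, at 257 ± 6.62 CPM (labelled KO) and 239 ± 11.5 CPM (labelled WT; adjusted p = 0.304). The 9 other phosphodiesterases had a median of 0.08, with Pde2a at 0.18 (SE 0.05, adjusted p = 0.0862) and Pde8b at 0.15 (SE 0.05, adjusted p = 0.212). All 7 genes of protein kinase A and its anchor had positive values, at a median of 0.05. Among them Prkar1b, a regulatory subunit, was at 0.13 (SE 0.04, adjusted p = 0.102) and the anchoring protein Akap5 at 0.33 (SE 0.09, adjusted p = 0.144).

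Genes of kinases and phosphatases around the product of Ppp1r1b, including the phosphatase that it inhibits, had a median of 0.03 over 10 genes. Among them were Cdk5r1, the activator of Cdk5, at 0.15 (SE 0.05, edgeR, adjusted p = 0.145) and Ppp2r5d, a regulatory subunit of protein phosphatase 2A, at 0.11 (SE 0.04, adjusted p = 0.265). The 5 related phosphoproteins and effectors had a median of 0.12. Of these, Rap1gap, which inactivates the small GTPase Rap1, was at 0.16 (SE 0.04, adjusted p = 0.0686) and Arpp19, a phosphatase inhibitor, at 0.19 (SE 0.06, adjusted p = 0.143). Of the 50 genes of these 6 lists 0 passed in the main edgeR fit, 12 had an unadjusted p under 0.05 and 5 passed by DESeq2. Over all tested genes 311 of 15902 passed by DESeq2. The share of all genes at an unadjusted p under 0.05 is not given here, so the 12 have no background.

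**Figure D5:**
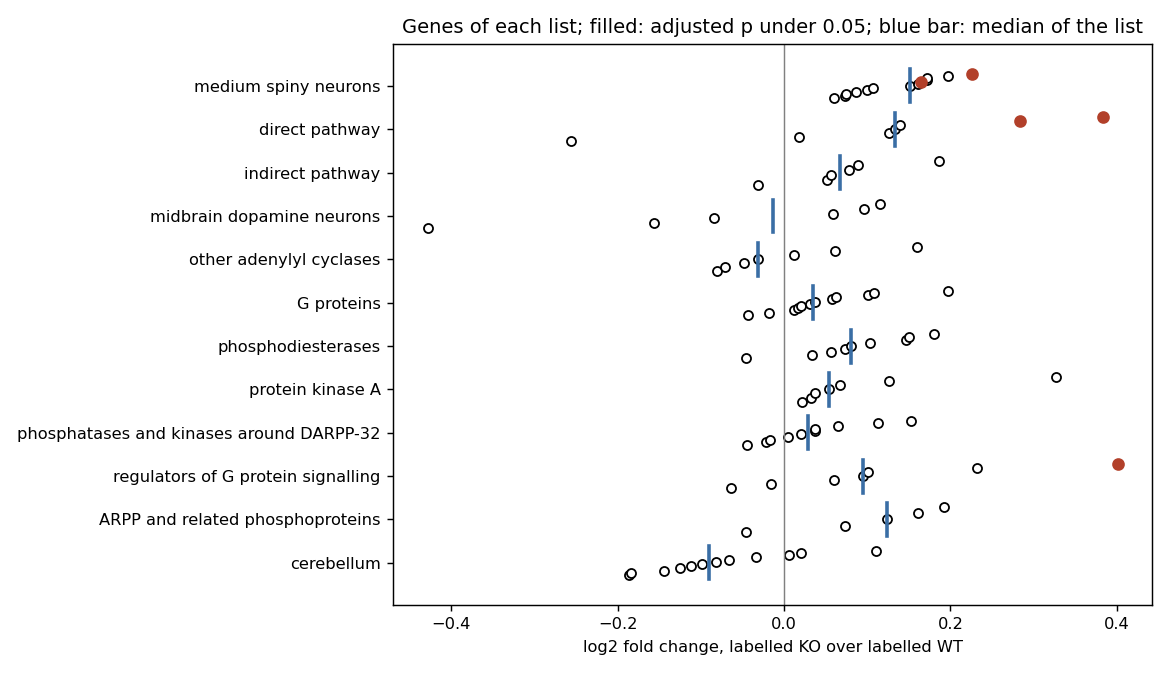
Log2 fold change (labelled KO over labelled WT, horizontal axis) of every tested gene in 12 lists, 1 point per gene, filled where the adjusted p is under 0.05, with the median of each list as a blue bar. The 13 markers of medium spiny neurons all lie above 0, and the cerebellar median lies at -0.09.

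Markers of tissue outside the striatum were read beside these results. Of 12 cerebellar markers none passed by edgeR or DESeq2, 1 had an unadjusted p under 0.05, 3 were positive on the log2 scale and the median was -0.09. Their summed level was 2421 to 2760 CPM in libraries labelled KO and 2483 to 2954 CPM in those labelled WT. Those with the lowest p were Zic2 and Zic1, at -0.19 (SE 0.07) and -0.18 (SE 0.08), adjusted p 0.229 and 0.404. Of the 10 pineal and retinal markers, 3 were analysed, with sums of 11.8 to 12.7 CPM (labelled KO) and 11.5 to 15.6 CPM (labelled WT) and all with a negative log2 fold change. Aanat, an enzyme of melatonin synthesis, was at 0.495 ± 0.180 CPM in libraries labelled KO and 0.713 ± 0.105 CPM in those labelled WT (SD, n = 4 each). The photoreceptor arrestin Sag was at 4.90 ± 0.465 CPM (labelled KO) and 5.80 ± 0.685 CPM (labelled WT; SD, n = 4 each). Neither passed. Of the 6 pituitary markers 2 were tested, with no call by edgeR or DESeq2 and 0 at an unadjusted p under 0.05. All 6 summed to 2.87 to 4.40 CPM (labelled KO) and 2.02 to 3.90 CPM (labelled WT). The 5 choroid plexus markers, all tested, also held no call by either method and 0 at an unadjusted p under 0.05. They summed to 868.6 to 1033 CPM (labelled KO) and 879.7 to 1234 CPM (labelled WT). Their part in the changes of the 10 genes was not tested.

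Genes whose library-to-library pattern was most like that of the 10 were sought as a description. The pattern was the mean log2 CPM deviation from the group means, over 8 libraries, of the 8 genes above 10 CPM, and it was set against 10815 genes above the same level. The 6 genes outside the 10 that were most alike were Mrp63, Josd1, Cops5, Tsc22d1, Snd1 and Spcs1, with a likeness (Pearson's r) of 0.97, 0.97, 0.96, 0.94, 0.93 and 0.93. Tsc22d1 also differed between the groups, at 416 ± 11.7 CPM in libraries labelled KO and 368 ± 17.0 CPM in those labelled WT (SD, n = 4 each, adjusted p = 0.0304, edgeR), and with 1 library left out it stayed past the threshold only without KO-labelled replicate 2 or WT-labelled replicate 4, its adjusted p reaching 0.128 without WT-labelled replicate 3. The other 5 did not pass. Of the 8 genes themselves, Drd2 was the most like their mean (0.92) and Pde10a the least (0.23). Each of the 8 is part of that mean, which raises its likeness to it. All these values share the same 8 libraries and their depths and carry no p.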

How the data were processed

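Brain RNA of 8 libraries, 4 labelled KO and 4 labelled WT, was analysed. The authors deposited expected counts per gene, unscaled and 91.47% of them whole within 0.001. Extraction used Trizol and a column, and libraries were stranded and made from mRNA, per the labels' protocols. TopHat2 2.0.9, edgeR and the build GRCm38 stand in the submitters' processing notes with no role. How reads were counted, and whether by strand, is not given in the sources used here.

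Counts were rounded, filtered by filterByExpr, scaled by TMM and tested with edgeR 4.0.16 (R 4.3.3, robust quasi-likelihood, group as the only term, Benjamini-Hochberg over 15902 genes, threshold 0.05). CPM are TMM-scaled means ± SD. Each SE is the fold change over the root of its F statistic. Ratios used exact permutation over 70 splits. Positions, lengths and overlaps came from GENCODE M21. Depth sets a count of 3 at 0.150 to 0.252 CPM.

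Alternatives were median-ratio and upper-quartile factors, other filters, DESeq2 1.42.0, limma-voom 3.58.1, GC content and length trends removed (mgcv 1.9.3), a replicate block and libraries left out. Pairs of libraries within a group differed beyond sampling noise (chi-square per degree of freedom 2.44 to 5.01). All 8 were kept. In a simulation of KO against WT (15818 genes), 62% of 50 genes changed 1.25-fold were recovered, 92% at 1.5-fold and 100% at 2-fold, with 11 unchanged genes called. The changed genes were drawn from those above a log2 CPM of 2, a level Drd4 did not reach.

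The genes and lists were chosen with earlier results of these data known. Named are the 10 genes, Uhrf2, the genes of each list past the threshold or else the 2 with the lowest p, and the 6 most alike. Single values of 1 listed marker are not reported here.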

Additional observations from a re-analysis of the deposited data

Results flagged for a closer look

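A library that stands far from the other 3 of its group was found in 5 of the 76 sets of 4 values checked (38 named genes in either group); chance flags about 1 in 20. Drd2 was low in KO-labelled replicate 4, at 15.6 CPM against 17.3 to 17.6 CPM in the other 3. Pde10a was high in WT-labelled replicate 1, at 178 CPM against 169.6 to 169.9 CPM. Uhrf2 was low in WT-labelled replicate 2, at 47.7 CPM against 57.2 to 58.9 CPM. Pde8b was low in WT-labelled replicate 3, at 61.4 CPM against 70.4 to 70.8 CPM, and Rap1gap in WT-labelled replicate 1, at 262 CPM against 284 to 288 CPM.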

How the results depend on the processing

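Of the 10 genes, 4 passed under median-ratio and upper-quartile factors, both other filters and limma-voom, and 3 with DESeq2, which gave no adjusted p for Drd4, or with GC content and length trends removed, where Adcy5 missed the threshold (adjusted p = 0.064). Without 1 library 0 to 5 passed, and without both libraries numbered 1 it was 1, Drd4, where Drd2 turned to -0.0045. Over all genes the count of calls ran from 110 to 324 without 1 library. The replicate number as a block gave 495 calls and 6 of the 10 genes (548 and 6 with the GC content and length trends removed as well), adding Pde10a and Rgs9. The labels tie the numbers to no shared animal or batch. Same-numbered libraries deviated together at correlations of 0.21, 0.08, 0.02 and 0.07, and not every library was most like its own number, so the numbers were not taken as pairs. An exact test over 4 pairs, or with 1 library left out, cannot reach 0.05, so these fits could not decide on a ratio. No ratio passed under the block (exact permutation, adjusted p = 0.25 for each of the 4), with 1 CPM added, or without 1 library. The difference in log2 ratio, labelled KO minus labelled WT, then ran from 0.14 to 0.30 for Drd1a to Drd2 and from 0.15 to 0.24 for Drd1a to Adora2a. It ran from -0.10 to -0.01 for Tac1 to Penk and from 0.18 to 0.23 for Pdyn to Penk. Uhrf2 passed in every alternative, at 0.61 to 0.72. Spcs1 turned positive without KO-labelled replicate 4 and WT-labelled replicates 2 and 4 (-0.024 to 0.015 over the 8 fits without 1 library). Calls in the lists changed under some settings, from 0 to 7 for markers of medium spiny neurons. They ran from 0 to 2 for protein kinase A and for the related phosphoproteins. For G proteins, phosphodiesterases, and the kinases and phosphatases around the product of Ppp1r1b they ran from 0 to 1. Other adenylyl cyclases stayed at 0. Depth limits Drd4 most, at 4 to 27 counts.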
